A study of Homo sapiens with 4 samples.

Results

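The genes described here are 9 antioxidant and quinone-handling targets of the transcription factor NRF2, namely HMOX1, NQO1, GCLM, GCLC, TXNRD1, SRXN1, AKR1C1, FTL and ME1. They were found by gene symbol, as the probe sets that the array's annotation assigns to one of these symbols alone. This gave 10 of 33252 probe sets and 9 of 18417 genes, with a pair of probe sets for AKR1C1 and a single one for each of the others. Expression was measured on 4 arrays: U266 cells with 15 µM atovaquone for 2 h, U266 cells with vehicle (DMSO) for 2 h, K562 cells with 20 µM atovaquone for 5 h, and K562 cells with vehicle for 5 h. Both lines were kept in RPMI-1640 medium and serum, and drug or DMSO was given without a change of medium. U266 is a multiple myeloma line, K562 is a chronic myeloid leukaemia line, and atovaquone is an antimalarial hydroxynaphthoquinone that blocks respiratory complex III. Each group held 1 array, so there is no replicate, no test was run, and every ratio describes a pair of arrays.

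NRF2, encoded by NFE2L2, is held at a low level by KEAP1, an adaptor that presents it to a CUL3 ubiquitin ligase for destruction. Electrophiles and oxidants modify cysteines of KEAP1, NRF2 then accumulates, and with a small MAF protein it binds antioxidant response elements in its target genes. BACH1 competes for the same elements and represses HMOX1 in particular until heme displaces it. Quinones are a classic class of agents that can engage this pathway, and NQO1 reduces them to hydroquinones without releasing a semiquinone radical. The comparison of atovaquone with vehicle therefore asks how these genes stood after exposure to a quinone drug, and the vehicle arrays give the starting level of each line.

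The RefSeq promoter table (GRCh38.p14) holds 9 windows for 8 of the 9 genes, with 2 starts for TXNRD1, each from 250 bases before to 50 bases after the start. The antioxidant response element core was searched as TGACNNNGC on both strands. It was found in 4 windows of 3 genes, GCLM, ME1 and TXNRD1, while 13.3% of all 35116 promoter windows held a match. The matches that lie wholly before the start are shown with flanking bases because they place the pathway's own motif beside genes whose values follow. Capitals mark the match, sequences run 5′ to 3′ on the gene's strand, and a match that begins with GC is read on the opposite strand.

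GCLM, chr1:93909431-93909494, minus strand: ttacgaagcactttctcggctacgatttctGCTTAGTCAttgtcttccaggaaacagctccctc

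ME1, chr6:83431150-83431218, minus strand: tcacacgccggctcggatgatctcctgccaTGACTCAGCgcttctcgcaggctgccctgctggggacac

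TXNRD1 first start, chr12:104215650-104215718, plus strand: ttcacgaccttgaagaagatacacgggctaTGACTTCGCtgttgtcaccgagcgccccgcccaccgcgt

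TXNRD1 second start, chr12:104286900-104286968, plus strand: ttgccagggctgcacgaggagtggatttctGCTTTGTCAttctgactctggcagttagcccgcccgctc

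The GCLM match begins 34 bases before the start and the ME1 match 137 bases before it. In ME1 the match overlaps an AP-1 motif, searched as TGANTCA and found in 7.71% of all windows. The TXNRD1 matches begin 99 bases before the first start and 102 before the second. A further match in ME1 and another in the first TXNRD1 window lie after or across the start and are not shown. These letters describe the windows only, and known elements of NRF2 targets can lie farther away.

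Most plasma cell, erythroid and megakaryocytic markers with a value were higher in the line they mark. Of 12 plasma cell markers, 7 were measured on both vehicle arrays. Of these, 6 were at least 2-fold higher in U266 than in K562, beside 7.97% of all genes measured on both. A bound of that size was found for 4 more. CD38, on that list, ran the other way, with an intensity of 396 in U266, against 668 in K562. Of 13 erythroid and megakaryocytic markers, 4 were measured on both, and 3 of these were at least 2-fold lower in U266, beside 6.97% of all genes. Another 4 had such a bound, while 4 had no value here. Among 13 T cell, fibroblast and epithelial markers, 5 were measured on both. Of these, 2, KRT8 and KRT18, were at least 2-fold lower in U266, and EPCAM had such a bound. In K562, 1 of 6 measured plasma cell markers, XBP1, was at least 1.5-fold higher with atovaquone than with vehicle, and no other marker passed 1.5-fold in either line. Its part in the results below was not tested. With bulk RNA, fewer cells that express a gene and less RNA per cell cannot be told apart. Array medians ranged from 314 to 340 in intensity. Each array was given a floor at the 40th percentile of its annotated probe sets, an intensity of 305 to 331. Values beneath it were treated as not reliably above background. A gene is called measured where neither array of a pair fell under it. Log2 ratios were centred on the median of annotated probe sets measured in that pair.

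Heme oxygenase and ferritin are the iron-related arm of the response. HMOX1, which splits heme into biliverdin, carbon monoxide and iron, had an intensity of 1214 in U266 with atovaquone, against 1113 with vehicle. In K562 it stood at 861 with atovaquone, against 916 with vehicle. The log2 ratio of atovaquone to vehicle was 0.14 in U266 and −0.085 in K562, so the gene lay a little above its vehicle level in one line and a little below it in the other. FTL, the light chain of the iron store ferritin, had 10645 in U266 with atovaquone, against 9272 with vehicle. The K562 arrays gave 8055 with atovaquone, against 7527 with vehicle. Its log2 ratios were 0.21 and 0.10. The U266 ratio was the highest among those of the 9 genes measured there, with 691 of all 10731 measured genes above it.

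Glutathione synthesis is represented by the subunits of glutamate-cysteine ligase, its rate-limiting enzyme. GCLC, the catalytic subunit, had an intensity of 1786 in U266 with atovaquone, against 1831 with vehicle. In K562 it had 1566 with atovaquone, against 1293 with vehicle. That difference, a log2 ratio of 0.28 or 1.22-fold, was the second highest of the 9 genes in K562, with 920 of 10756 measured genes above it. In U266 the ratio was −0.026. GCLM, the modifier subunit, had 671 in U266 with atovaquone, against 743 with vehicle. The K562 values were 787 with atovaquone, against 778 with vehicle. The ratios of GCLM were −0.14 in U266 and 0.022 in K562. The K562 ratio of GCLC was thus above that of GCLM on this pair of arrays. Whether the subunits differ beyond the spread between cultures was not tested. The GCLM ratio in U266 was the lowest among those of the 9 genes measured there.

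The thiol enzymes differed little between atovaquone and vehicle in either line. TXNRD1, the cytosolic thioredoxin reductase, had an intensity of 1779.9 in U266 with atovaquone, against 1799 with vehicle. The K562 arrays read 1695 with atovaquone, against 1627 with vehicle. The log2 ratios were −0.0058 and 0.064. SRXN1, sulfiredoxin, which repairs overoxidised peroxiredoxins, had 925 in U266 with atovaquone, against 979 with vehicle. K562 gave 1384 with atovaquone, against 1335 with vehicle. Its ratios were −0.072 and 0.057, and the gap between the lines was wider than the gap between treatments within either.

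ME1, the cytosolic malic enzyme that makes NADPH, had an intensity of 996 in U266 with atovaquone, against 955 with vehicle. In K562 it had 1023 with atovaquone, against 980.5 with vehicle. All 4 arrays lay close together, and the log2 ratios were 0.071 and 0.067. GCLM, ME1 and TXNRD1, whose windows above hold the antioxidant response element core, had K562 ratios from 0.022 to 0.067.

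NQO1, the quinone reductase, had an intensity of 1174 in U266 with atovaquone, against 1227 with vehicle. In K562 it had 2971 with atovaquone, against 2570.2 with vehicle. Both K562 arrays lay above both U266 arrays. The log2 ratio of atovaquone to vehicle was −0.054 in U266 and 0.21, or 1.16-fold, in K562, where 1418 measured genes had a higher ratio.

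**Figure D1:**
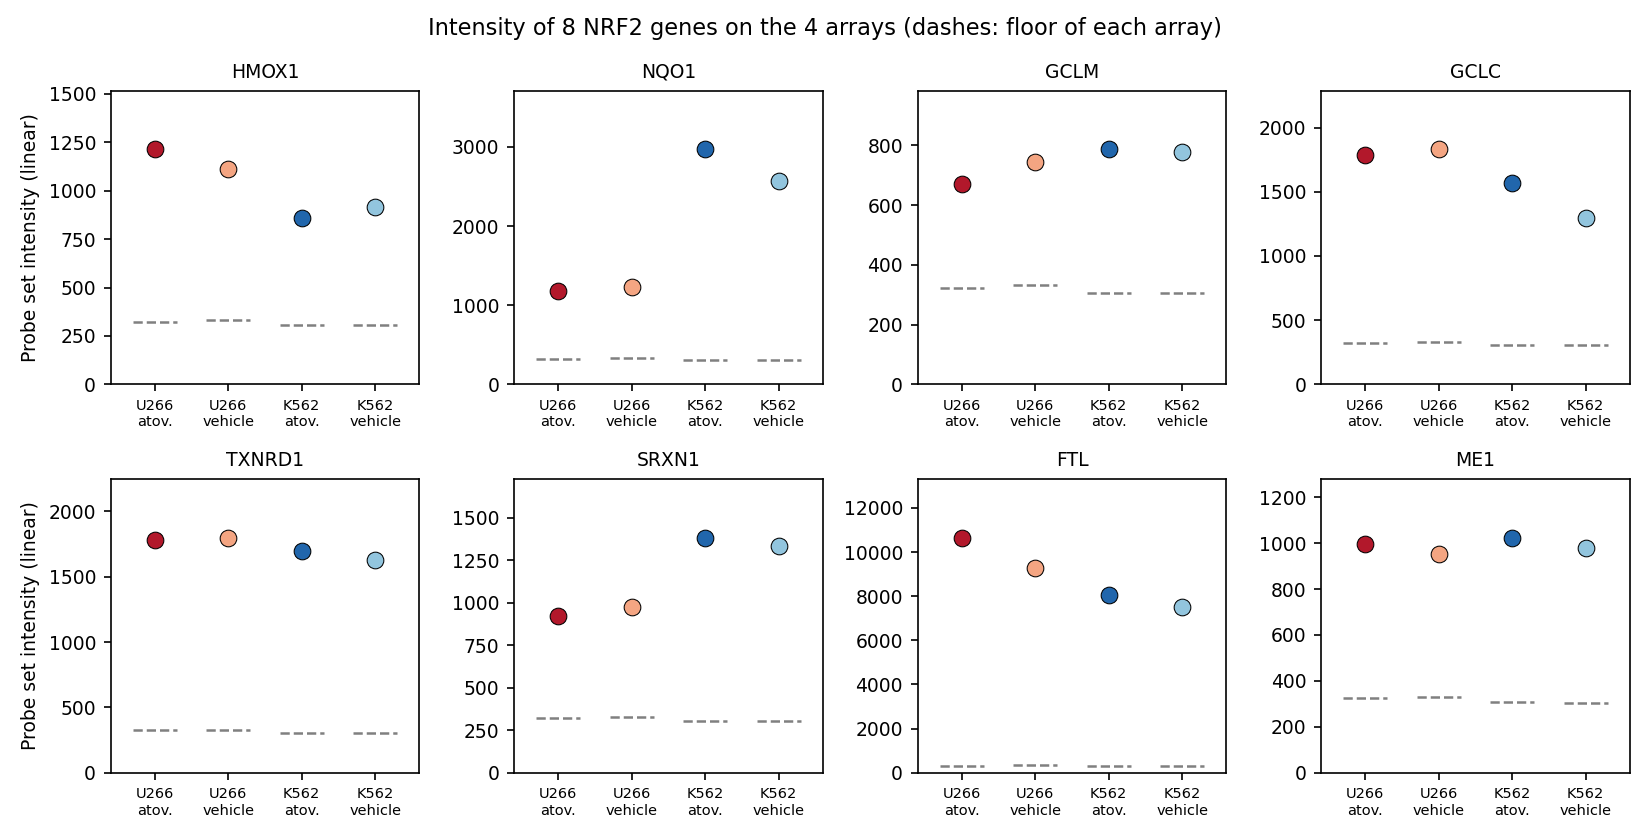
Intensity on a linear scale (y axis, from 0, a scale of its own for each gene) of the 8 genes other than AKR1C1 on the 4 arrays (x axis), with each point 1 array and each dashed mark the floor of that array. All 8 genes lie above the floor on every array, and NQO1 stands higher in K562, at 2971 and 2570.2, than in U266, at 1174 and 1227.

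AKR1C1, an aldo-keto reductase that reduces carbonyl compounds including steroids, was the exception in K562. Its representative probe set had an intensity of 492 in K562 with atovaquone, against 313 with vehicle, and the other one had 793, against 418. The log2 ratios were 0.66, or 1.58-fold, and 0.93, or 1.90-fold, so both probe sets were higher with atovaquone. Of 10756 measured genes, 107 had a higher K562 ratio than 0.66. In U266 both probe sets lay below the floor on both arrays, at 137 and 94.3 with atovaquone, against 159 and 105 with vehicle, and no ratio is given. The representative K562 vehicle value was only 1.03 times its floor. A floor set at the 60th percentile put the representative probe set below it on both K562 arrays. The other probe set was 1.37 times its floor on the K562 vehicle array.

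AKR1C1 has close paralogs on chromosome 10, and signal shared between their probe sets cannot be separated here. AKR1C2, which is nearly identical to it, had an intensity of 334 in K562 with atovaquone, just above the floor, against 223 with vehicle, below it. That leaves a bound of at least 1.10-fold higher. AKR1C3, which makes testosterone from androstenedione, had 246 in K562 with atovaquone, against 229 with vehicle, and AKR1C4, a liver enzyme, had 156, against 84.0. Both were below the floor on all 4 arrays, so those values carry no ratio. The part of the paralogs in the AKR1C1 signal was not tested.

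The AKR1C1 window before the start is shown because this gene had the highest ratio of the 9 in K562. It held no match to TGACNNNGC, TGANTCA or TGATGNAA (a composite site for C/EBP and ATF proteins). It held 1 match, in capitals, to the heat shock element core GAANNTTC, which 6.77% of all windows hold.

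AKR1C1, chr10:4963165-4963414, plus strand: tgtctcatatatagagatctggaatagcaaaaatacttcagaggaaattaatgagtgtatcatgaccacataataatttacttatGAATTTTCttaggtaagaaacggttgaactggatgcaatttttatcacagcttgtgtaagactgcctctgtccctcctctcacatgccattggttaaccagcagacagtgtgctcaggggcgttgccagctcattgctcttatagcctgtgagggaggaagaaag

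**Figure D2:**
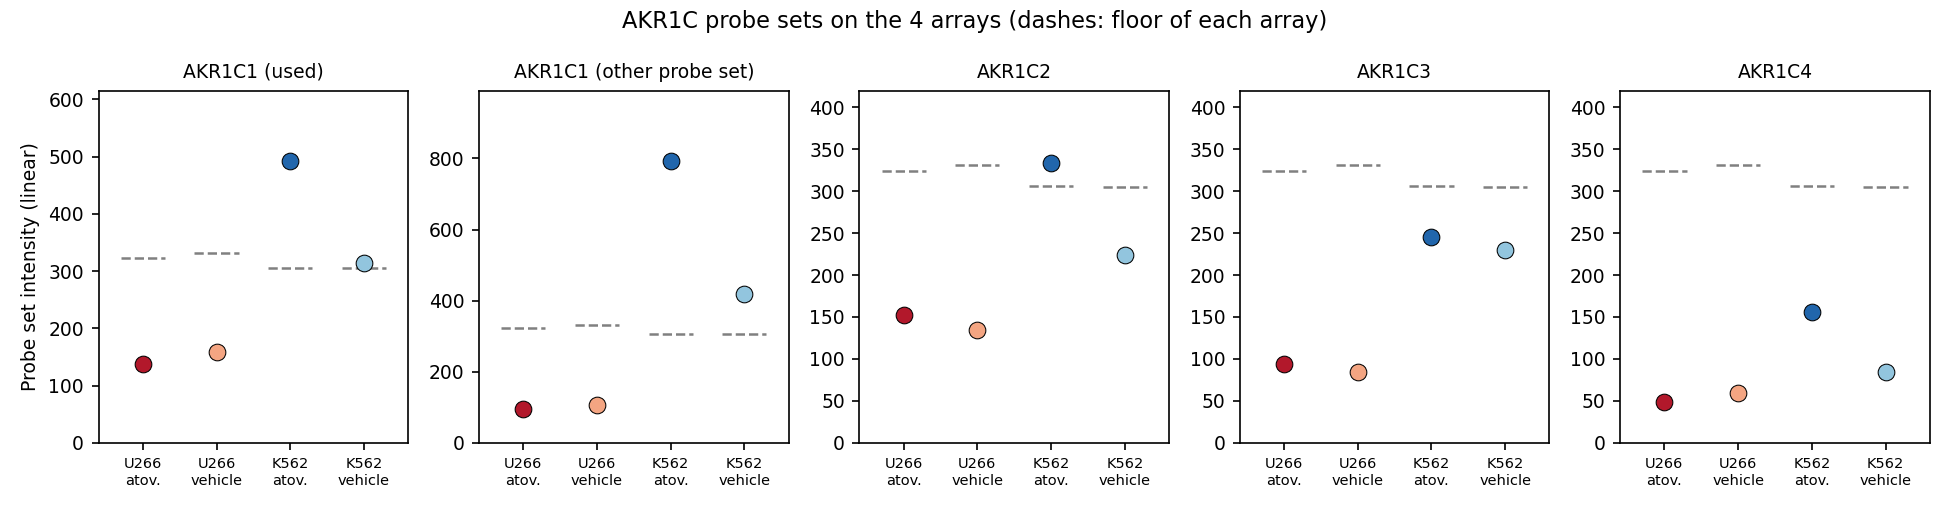
Intensity on a linear scale (y axis, from 0, a scale of its own for each panel) of both AKR1C1 probe sets and of AKR1C2, AKR1C3 and AKR1C4 on the 4 arrays (x axis), with each point 1 array and dashes at each array's floor. Both AKR1C1 probe sets are higher in K562 with atovaquone, at 492 and 793, than with vehicle, at 313 and 418, and both lie below the floor in U266.

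As a group the 9 genes stood close to their vehicle level. In U266, 8 were measured, and 0 passed 1.5-fold in either direction with atovaquone. Of all 10731 measured genes 0.857% were that much higher and 0.0932% that much lower, so 0 of 8 is near the background. The median log2 ratio of the 8 was −0.016, from −0.14 to 0.21, beside −0.00012 over all measured genes, and 3 of the 8 were above 0, where 50% of all measured genes were. In K562 all 9 were measured and 1, AKR1C1, was at least 1.5-fold higher, beside 1.42% of all 10756 measured genes, while 0 were at least 1.5-fold lower, beside 0.697%. The K562 median was 0.067, from −0.085 to 0.66, beside −0.0057 over all measured genes. Of the 9, 8 were above 0 in K562, HMOX1 being the exception, where 48.8% of all measured genes were. The doses and times differ between the lines, so these values are set side by side and not compared.

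Apart from AKR1C1, each ratio lay within the range that holds the middle 95% of measured genes, which ran from −0.28 to 0.34 in U266 and from −0.42 to 0.48 in K562. The probe sets of genes with more than one give another measure of precision. Their log2 ratios differed with an SD of 0.14 in U266 over 399 genes and 0.15 in K562 over 417 genes. Those values cover the probe sets of 1 array pair and not the spread between cultures. In K562 the 95th percentile of the absolute difference was 0.36. The AKR1C1 probe sets differed by more than the K562 SD but by less than that percentile, and both were above the K562 range.

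**Figure D3:**
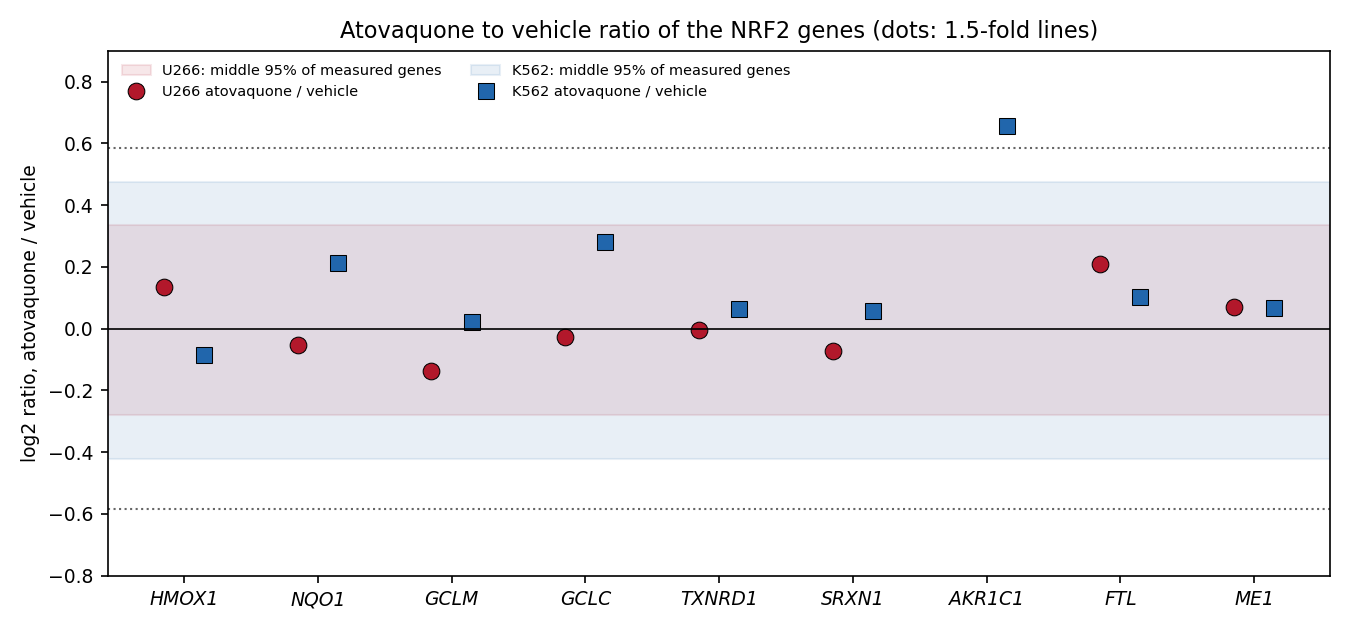
Log2 ratio of atovaquone to vehicle (y axis) of each gene (x axis) in U266 (circles) and K562 (squares), with shaded bands for the middle 95% of measured genes in each line and dotted lines at 1.5-fold. AKR1C1 in K562, at 0.66, is the single point beyond the dotted lines, and its U266 value is missing because it was below the floor.

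A list of 16 NRF2 regulators included NFE2L2 itself and its relatives NFE2, NFE2L1 and NFE2L3. Of the 16, 12 were measured in each line and 0 passed 1.5-fold in either, beside the shares given above. The median log2 ratios were −0.019 in U266 and −0.13 in K562. NFE2L2 itself had an intensity of 2070.4 in U266 with atovaquone, against 2029 with vehicle, and 2744 in K562 with atovaquone, against 2452 with vehicle. Its log2 ratios were 0.039 and 0.17. KEAP1 stood at −0.12 and −0.14 and BACH1 at 0.18 and 0.20 in U266 and K562. CUL3 had the lowest U266 ratio of the list at −0.25 and stood at −0.40 in K562. SQSTM1, the p62 autophagy receptor that can sequester KEAP1 and is itself an NRF2 target, had the highest K562 ratio of the list at 0.56, with 2953 against 2009 in intensity, and stood at 0.024 in U266. NFE2L3, a relative of NRF2, had the lowest K562 ratio at −0.51. These are mRNA levels, while NRF2 is controlled mainly through the stability of its protein, which was not measured.

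Wider redox genes were read from 7 further lists, covering glutathione, thioredoxins, NADPH supply, other quinone and carbonyl reductases, superoxide and peroxide enzymes, heme and iron, and efflux with other NRF2 targets. Together with the regulators they hold 162 genes. In U266, 105 had a measured ratio, of which 1 passed 1.5-fold upward and 0 downward, beside the 0.857% and 0.0932% given above. In K562, 109 had one, of which 6 passed 1.5-fold upward and 0 downward, beside 1.42% and 0.697%. The medians were −0.00090 and 0.059. The U266 gene was CHAC1, which degrades glutathione, with an intensity of 2547 with atovaquone, against 1277.5 with vehicle. In K562 CHAC1 was below the floor with vehicle and at least 10.5-fold higher.

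Of the 6 in K562, SLC7A11 stands nearest to the glutathione branch of the NRF2 response. It encodes the cystine importer that supplies cysteine for glutathione, and NRF2 can induce it, as can the amino acid stress factor ATF4. SLC7A11 had an intensity of 2298 in K562 with atovaquone, against 927 with vehicle, a 2.49-fold difference. In U266 it had 2523 with atovaquone, against 2512 with vehicle, a log2 ratio of 0.016, so both U266 arrays were near the K562 atovaquone level. Its partner chain SLC3A2 had ratios of 0.23 in U266 and 0.38 in K562. The ligase subunits GCLC and GCLM, downstream of that importer, had the K562 ratios of 0.28 and 0.022 given above.

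The other 5 in K562 came from several lists, with IDH1 and MTHFD2 both from that of NADPH supply. SESN2, a stress-induced sestrin that is also an ATF4 target, was 3.80-fold higher, and SLC6A9, a glycine transporter, 2.40-fold. IDH1, the cytosolic isocitrate dehydrogenase that makes NADPH, had an intensity of 3359 with atovaquone, against 1641 with vehicle, and was 2.05-fold higher. In U266 the ratio of IDH1 was 0.0069, with 1044 against 1046. The mitochondrial folate enzyme MTHFD2 was 1.53-fold and the mitochondrial carbonyl reductase CBR4 1.57-fold higher. ALDH1L2, another mitochondrial folate enzyme, was below the floor with vehicle and at least 1.52-fold higher. MTHFD2 and ALDH1L2 are ATF4 targets as well. The part of ATF4 or of NRF2 in the K562 differences of these lists was not tested.

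Other genes of these lists, picked after their values were seen, give examples of smaller ratios. The pentose phosphate genes PGD, TKT and TALDO1, which make NADPH or feed that path, had K562 ratios of 0.048, 0.032 and 0.059. Thioredoxin, TXN, stood at −0.12 in U266 and 0.21 in K562, and peroxiredoxin 1, PRDX1, at 0.015 and 0.10. Glutathione reductase, GSR, stood at 0.096 and −0.0074. GSTM4, a glutathione transferase, stood higher in K562, at 0.38, and at 0.12 in U266. NQO2, a quinone reductase related to NQO1, had the lowest U266 ratio of the reductases at −0.26 and stood at −0.023 in K562. Of the list of heme and iron genes, 11 were measured in U266 and 12 in K562, and 0 passed 1.5-fold in either line. FECH, which completes heme, had the highest K562 ratio of that list at 0.46, and FLVCR1, a heme exporter, the lowest at −0.50. FTH1, the ferritin heavy chain, had no value here.

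**Figure D4:**
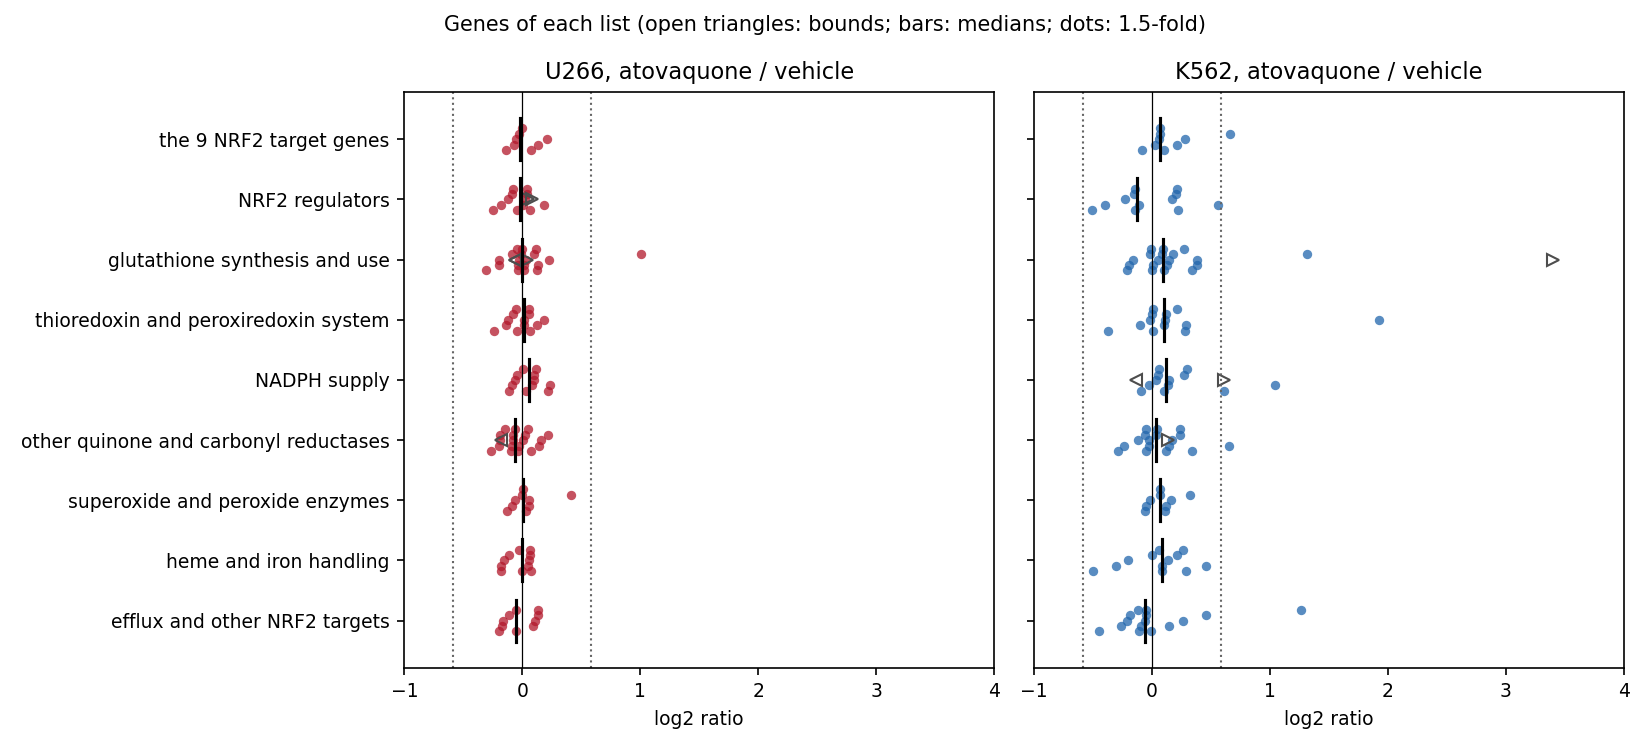
Log2 ratio of atovaquone to vehicle (x axis) of every measured gene of each list (y axis) in U266 (left) and K562 (right), with filled points for genes, open triangles for bounds, bars for list medians and dotted lines at 1.5-fold. In U266 the single point past 1.5-fold is CHAC1 at 1.01, while in K562 SESN2 at 1.93, SLC7A11 at 1.32, SLC6A9 at 1.26 and IDH1 at 1.04 lie farthest to the right among measured genes.

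The vehicle arrays compare the starting level of each gene in U266 and K562, with vehicle for 2 h and 5 h. These arrays also serve as the vehicle side of the ratios above, so the values are not independent of them. Of 8 genes measured on both, 0 were at least 2-fold higher in U266, beside 7.97% of 9483 genes measured on both, and 1 was at least 2-fold lower, beside 6.97%. Of the 8, 4 were above 0, where 49.5% of all measured genes were, and the median was 0.078. The gene past 2-fold was NQO1, with an intensity of 1227 in U266, against 2570.2 in K562, or 2.06-fold lower in U266. After quantile normalisation the difference was 1.98-fold.

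Among the other 7, GCLC had the highest log2 ratio of U266 to K562 at 0.53, with 1831 against 1293 in intensity. FTL stood at 0.33, HMOX1 at 0.31 and TXNRD1 at 0.17. ME1 at −0.013 and GCLM at −0.041 were near equal in the lines, and SRXN1 stood at −0.42. NQO1 and SRXN1 were thus lower in U266, and GCLC, FTL, HMOX1 and TXNRD1 higher. Each ratio, NQO1 included, lay within the range that holds the middle 95% of genes measured on both vehicle arrays, −1.51 to 1.68. AKR1C1 was below the floor in U266 and barely above it in K562, at 159 against 313, and the other probe set, at 105 against 418, gave a bound of at least 1.24-fold lower in U266. Among regulators NFE2L2 stood at −0.25, KEAP1 at 0.43 and BACH1 at 0.50, all under 2-fold.

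**Figure D5:**
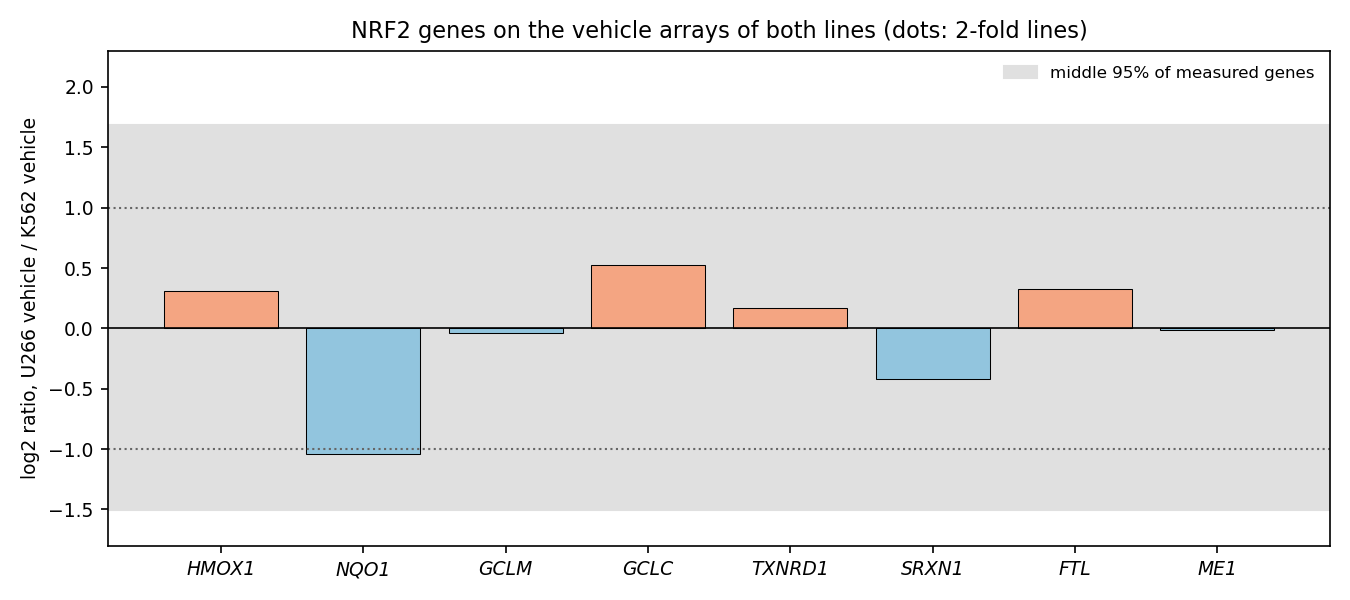
Log2 ratio of the U266 vehicle array to the K562 vehicle array (y axis, bars from 0) for the 8 genes measured on both (x axis), with the grey band for the middle 95% of all measured genes and dotted lines at 2-fold. NQO1 at −1.04 is the single bar past 2-fold, and GCLC at 0.53 is the highest.

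The genes most like HMOX1 and FTL were taken by Euclidean distance over the U266 ratio, the K562 ratio and the difference between vehicle arrays, among 9222 genes measured on all 4 arrays. For HMOX1 they were PSMA6, CTSZ and STX6, at distances of 0.017 to 0.019. For FTL, which had the largest U266 ratio of the 8 measured genes among the 9, they were NTAQ1, SRP14 and EXOC4, at 0.030 to 0.052. All these distances are below the SD of the difference between probe sets of the same gene, 0.14 in U266 and 0.15 in K562. Which genes rank nearest is therefore not resolved, and those named are examples. AKR1C1 was not measured on all 4 arrays and has no neighbours by this rule.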

How the data were processed

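Biotin-labelled cRNA was made from 1 µg of total RNA by the standard Affymetrix protocol, per the labels' protocols. The authors' deposited values are probe set intensity on a linear scale. Which software, background correction and normalisation produced them is not given in the sources used here. Genes were named from the platform annotation, using the 19460 probe sets with a single symbol and leaving out 1754 with several. Among probe sets of 1 gene, the brightest by mean log2 intensity stood for it. Values under each array's floor, the 40th percentile over annotated probe sets, were raised to it, and a gene under it on a single array of a pair has a bound in place of a ratio. Log2 ratios were centred on their median, which removed −0.0096 in U266, −0.0048 in K562 and −0.025 between vehicle arrays. Counts used 1.5-fold for atovaquone against vehicle and 2-fold between vehicle arrays. The number of arrays limits the precision.

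The 9 genes and all lists were chosen with earlier results of these data known. The text names the 9 genes, list genes past 1.5-fold, others of a list by size of ratio, and NFE2L2, KEAP1, BACH1, SLC7A11 and FTH1 whatever their value. PGD, TKT, TALDO1, TXN, PRDX1, GSR and GSTM4, and the genes compared between vehicle arrays in the closing section, were picked after their values were seen. The calculation was tested on simulated data. Alternatives changed the floor, centring, normalisation, offset and probe set choice. Python 3.11.15, numpy 2.4.6, pandas 2.3.3 and matplotlib 3.10.9 were used.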

Additional observations from a re-analysis of the deposited data

How the results depend on the processing

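Across 8 other settings, and 1 more chosen after seeing the data (AKR1C1 by its other probe set), no gene's ratio that passed its fold threshold changed sign. Ratios near 0 could change sign, as TXNRD1 in U266 did, at 0.0036 without a floor in place of −0.0058. The U266 count of the 9 genes past 1.5-fold was 0 under all of these settings. Raising the floor to the 60th percentile made the K562 count of genes at least 1.5-fold higher 0 in place of 1. The representative AKR1C1 probe set then lay under it on both arrays. The AKR1C1 log2 ratio was otherwise 0.64 to 0.93. Between vehicle arrays, 2 of the 9 genes were at least 2-fold lower in U266 without a floor and 0 after quantile normalisation, in place of 1, and the median was −0.075 without a floor in place of 0.078. For the wider lists in K562, 12 genes were at least 1.5-fold higher without a floor in place of 6, and 1 was lower, as was 1 under a 20th percentile floor, in place of 0. Between vehicle arrays these lists had 8 genes at least 2-fold higher and 12 lower in U266. Without a floor the counts were 18 and 24, under a 60th percentile floor 5 and 5, and under a 20th percentile floor 13 were higher. The floor sets how many genes are measured. Under the 60th percentile floor, MGST2, OXR1 and some markers had bounds between vehicle arrays that were smaller than their main ratios. No paired analysis was possible because each group holds 1 array, and leaving out an array leaves no ratio. The AKR1C1 values in U266 lay below the floor, so signal over background allows no ratio there.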

Other observations

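On the vehicle arrays 99 genes of the wider lists were measured in both lines. Of these, 8 were at least 2-fold higher and 12 at least 2-fold lower in U266, beside 7.97% and 6.97% of all measured genes, so the higher count is near the background. The genes named here were picked after their values were seen and are examples. GPX1, the main cytosolic glutathione peroxidase, had an intensity of 6487 in U266, against 180.3 in K562, below the floor, and was at least 21.6-fold higher in U266. GPX1 has a further probe set whose values are not given here, and those printed are of the brightest. GSTM1, a glutathione transferase, was 5.18-fold higher in U266, with 1931 against 379. MGST1, a microsomal glutathione transferase, ran the other way, with 76.6 in U266, below the floor, against 5091 in K562, and was at least 15.1-fold lower in U266. MGST2 and MGST3 were 3.19-fold and 3.06-fold lower in U266. The MGST2 intensity in U266, 339, lay just above the floor of 331.

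Of 16 quinone and carbonyl reductases measured in both lines, 1 passed 2-fold upward in U266 and 2 downward, beside 7.97% and 6.97% of all measured genes. The median log2 ratio of the 16 was 0.082. Apart from those 16, 3 were higher and 1 lower in U266 by a bound of that size. CBR1, a carbonyl reductase that also reduces quinones, was 4.14-fold higher in U266, with 1674 against 412, and CBR3 at least 3.37-fold. AKR7A3, an aldo-keto reductase, was at least 7.80-fold higher in U266, with 2341 against 102. NQO2 was 2.55-fold lower in U266, with 828 against 2151, and POR, the cytochrome P450 reductase that passes electrons to quinones singly, 2.45-fold lower. Catalase, CAT, was 2.15-fold lower in U266, and biliverdin reductase B, BLVRB, 2.42-fold lower. Biliverdin reductase A, BLVRA, was 1.31-fold lower. The regulator SQSTM1 was 3.32-fold higher in U266. GSTM1 has near-identical paralogs, and signal shared between their probe sets cannot be told apart here, so its value is uncertain. Each of these values rests on 1 array per line.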
